A study of Mus musculus with 22 samples.

Results

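The surface markers by which bone marrow mesenchymal stem cells (MSC) are sorted and named were followed as transcripts in mouse MSC and in leukaemia cells cultured with them. The set is 10 genes, taken by symbol from a table of 27179 gene rows, and all 10 are in it: Ly6a, Cd44, Pdgfra, Pdgfrb, Thy1, Nt5e, Mcam, Cspg4, Lepr and Nes. The 22 RNA-seq libraries form 6 groups, and all cells came from C57BL/6J bone marrow. WT_MSC (n = 4) are wild type MSC cultured alone and KO_MSC (n = 4) are MSC from Lama4-/- mice, which lack the laminin α4 chain. WT_MSC_AML (n = 5) and KO_MSC_AML (n = 3) are MSC of the same genotypes sorted after 48 h of co-culture with leukaemia cells driven by MLL-AF9, a model of acute myeloid leukaemia (AML). WT_AML (n = 3) and KO_AML (n = 3) are the AML cells sorted from culture on wild type or on Lama4-/- MSC. The labels give the AML cells themselves as wild type in both groups, made by retroviral transfer of human MLL-AF9 into KIT+ marrow cells without lineage markers. Donor age is given as 10 to 14 weeks for MSC and 10 to 12 weeks for AML cells. The MSC were not fresh isolates but cultures expanded from sorted cells. The labels do not say how many animals or cultures stand behind the libraries of a group, so p-values measure only the spread between these libraries, which may be technical.

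SCA1, the product of Ly6a, is a small protein held on the membrane by a lipid anchor and is a standard marker of mouse haematopoietic and mesenchymal progenitors. CD44 is a receptor for the matrix polymer hyaluronan. In mouse marrow, fresh stromal progenitors are sorted as SCA1+ PDGFRα+ cells, while cells near sinusoids are recognised by the leptin receptor (Lepr) or by Nestin (Nes), and pericytes by NG2 (Cspg4), CD146 (Mcam) and PDGFRβ (Pdgfrb). CD90 (Thy1) and CD73 (Nt5e), an enzyme that makes adenosine from AMP, are classical markers of cultured human MSC. Here, per the labels, the MSC had been taken as negative for CD44 protein and positive for SCA1, and after co-culture they were sorted again on CD45, CD44 and SCA1, with AML cells taken by CD45.1.

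In the GRCm38 annotation, Ly6a (Entrez gene 110454) lies on chromosome 15, from 74994877 to 74998031 on the minus strand. Cd44 (12505) lies on chromosome 2, from 102811141 to 102901669 on the minus strand. Pdgfra (18595) lies on chromosome 5, from 75151322 to 75198206 on the plus strand. Chromosome 9 holds 4 of the genes on its plus strand. These are Thy1 (21838; 44043384 to 44048579), Mcam (84004; 44134658 to 44142727), Cspg4 (121021; 56865104 to 56899870) and Nt5e (23959; 88327609 to 88372089). Nes (18008) lies on chromosome 3, from 87971093 to 87980451, and Lepr (16847) on chromosome 4, from 101717137 to 101815352, both on the plus strand. The counts cover exons. In Pdgfra, 5.54% of the exon bases are overlapped by other annotated genes, the antisense Gm42802 and the microRNA Mir7025, and without a stated strand setting reads of a gene and its antisense partner cannot be told apart. In Ly6a, 6.33% of the 75-base words of its transcripts, the length of a read, also occur in Ly6c1 or Ly6i, so a small share of its reads could have been divided among these family members.

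Cd44, Pdgfra and Cspg4 were the members that moved together most closely across MSC libraries, with the values given further on, and the upstream sequences that RefSeq gives for them are shown for this reason. The Cd44 stretch is chr2:102901666-102901915 on the minus strand and the Pdgfra stretch is chr5:75152001-75152250 on the plus strand, inside the span of the annotated gene and before one of its transcript starts. The Cspg4 stretch is chr9:56864854-56865032 on the plus strand, all in GRCm38.p6 and written 5′ to 3′. Capitals mark the GC box GGGCGG, read on either strand.
Cd44: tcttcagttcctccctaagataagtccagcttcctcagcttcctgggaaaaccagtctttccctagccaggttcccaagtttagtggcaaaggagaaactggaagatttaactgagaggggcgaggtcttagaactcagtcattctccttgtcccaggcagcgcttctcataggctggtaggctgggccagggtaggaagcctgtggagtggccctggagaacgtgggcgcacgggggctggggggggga
Pdgfra: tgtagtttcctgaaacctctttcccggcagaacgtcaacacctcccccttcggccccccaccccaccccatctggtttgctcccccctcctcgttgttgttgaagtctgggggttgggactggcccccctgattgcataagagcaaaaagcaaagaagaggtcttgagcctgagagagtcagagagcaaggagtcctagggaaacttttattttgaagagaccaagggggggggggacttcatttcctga
Cspg4: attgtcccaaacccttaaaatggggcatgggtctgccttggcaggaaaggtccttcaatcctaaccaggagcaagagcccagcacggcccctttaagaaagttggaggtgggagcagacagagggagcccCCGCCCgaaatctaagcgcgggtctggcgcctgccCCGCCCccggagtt
The Cspg4 stretch of 179 bases holds 2 GC boxes on its minus strand, while the other two stretches, of 250 bases each, hold none. Of 32851 RefSeq promoters with 250 bases upstream, 32.7% hold a GC box on either strand. TATAAA, present in 12.4% of them, CCAAT, present in 33.8%, and the STAT-type motif TTCNNNGAA, present in 7.0%, were also searched on both strands and are in none of the 3 stretches. These are letter matches and say nothing about binding.

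Lama4 followed the genotype in each MSC library, with a mean of 339 CPM in WT_MSC (SD 11.7, n = 4), 0.601 CPM in KO_MSC (SD 0.301, n = 4) and 257 CPM in WT_MSC_AML (SD 39.8, n = 5), against 4 counts over the 3 KO_MSC_AML libraries. CPM are counts scaled to a common library size by TMM over all 22 libraries, whose totals ran from 11201751 to 24826876 counts. WT_MSC replicate 1 stood far from the other WT_MSC libraries for Pdgfrb, Thy1, Nt5e, Mcam and Cspg4, with the values given further on. It lay outside their range for every marker but Pdgfra. Ly6a, Cd44 and Nes were at 1.46, 1.40 and 0.427 times the mean of the others. It had the female transcript Xist at 232 CPM where the other WT_MSC libraries had the Y-linked Ddx3y at 55.2 to 61.3 CPM. KO_MSC replicate 1 had both, Xist at 179 CPM and Ddx3y at 40.9 CPM. In co-culture all 5 wild type MSC libraries had Ddx3y and all 3 knockout ones had Xist, so that genotype and this difference cannot be told apart there. Xist and Ddx3y were also uneven between KO_MSC_AML and KO_MSC, since KO_MSC replicates 2 and 4 had Ddx3y at 69.8 and 63.0 CPM without Xist. The part of this in the knockout co-culture comparison and in the interaction term was not tested. For KO_MSC_AML replicate 3 the cell type field names AML cells, but the title, description and genotype name MSC. Its Ptprc, which encodes CD45, was at 0.51 CPM, against 164 CPM or more in the AML libraries, and its Ly6a and Pdgfra were at 1314 and 582 CPM, so it was used as MSC.

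Scaled to exon length, Ly6a was the most abundant of the 10 transcripts in WT_MSC, at 971 ± 204 CPM per kb (SD, n = 4), followed by Thy1 at 659 ± 166 CPM per kb. Pdgfrb followed at 117 ± 12.5, Cd44 at 47.5 ± 8.91 and Pdgfra at 36.9 ± 2.37 CPM per kb. Cspg4 stood at 10.1 ± 3.73 CPM per kb. The 4 genes below it were near or under a few CPM per kb, with Mcam at 3.80 ± 5.37, Nt5e at 1.31 ± 2.18, Nes at 0.560 ± 0.191 and Lepr at 0.0293 ± 0.0386 CPM per kb, and SDs as large as the means for all but Nes. Cd44 and Pdgfra were close neighbours in this order. In KO_MSC they changed places, with Pdgfra at 57.2 ± 11.2 and Cd44 at 53.6 ± 10.3 CPM per kb (n = 4), a gap within the spread between libraries. Ly6a stayed first in KO_MSC, at 1587 ± 101 CPM per kb, but in WT_MSC_AML it stood at 634 ± 105 CPM per kb beside Thy1 at 676 ± 41.7 CPM per kb (n = 5), again within the spread.

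**Figure D1:**
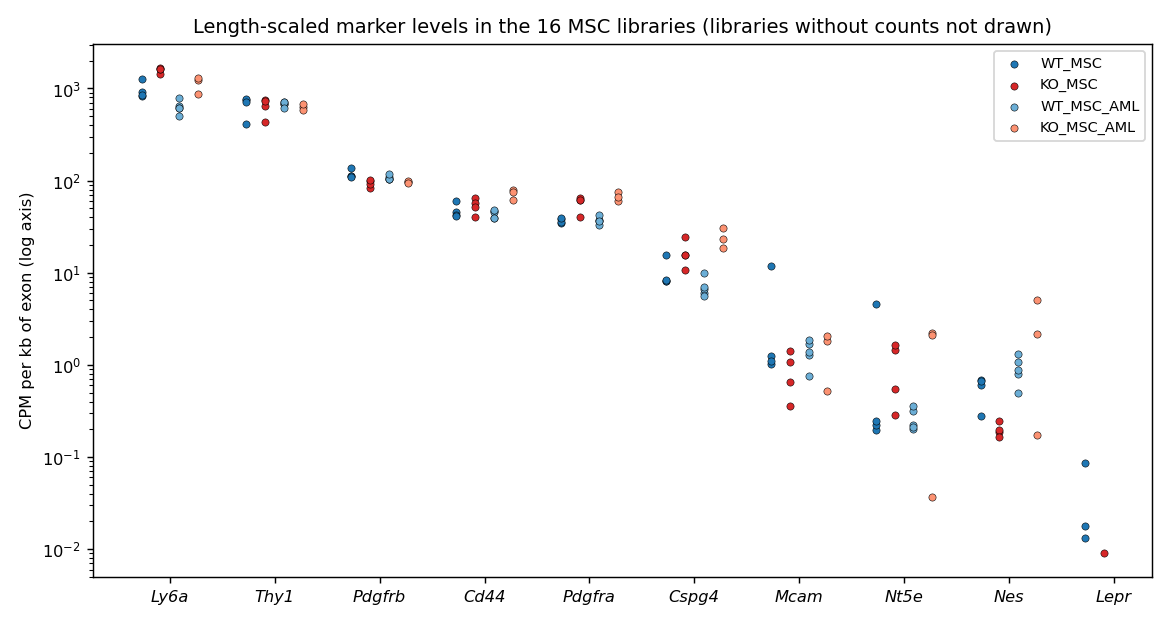
Length-scaled levels (CPM per kb of exon, log axis) of the 10 markers in the 16 MSC libraries, with a point for each library that had counts and a colour for each group. Ly6a, Thy1 and Pdgfrb lie above Cd44, Pdgfra and Cspg4, and the scatter between libraries widens for Mcam, Nt5e and Nes.

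The transcripts of the sort markers were looked up in each library. Ly6a, positive in the gate, was at 505 CPM or more in all 16 MSC libraries. Cd44, whose protein the labels give as negative in the gate, was at 223 to 452 CPM in all 16, above every AML library, where it was at 135 to 161 CPM. CD44 protein was not measured in these files, and whether the labels give the sign of the CD44 gate correctly could not be checked. Of the other gate genes, Ptprc had at most 5 counts in any MSC library cultured alone and 0 counts in each KO_MSC library, and Itgav, which encodes CD51 of the original gate, stood at 140 ± 40.6 CPM in WT_MSC and 162 ± 5.42 CPM in KO_MSC (n = 4 each). Pecam1, which encodes CD31, stood at 0.307 ± 0.213 CPM in WT_MSC and 0.198 ± 0.135 CPM in KO_MSC.

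**Figure D2:**
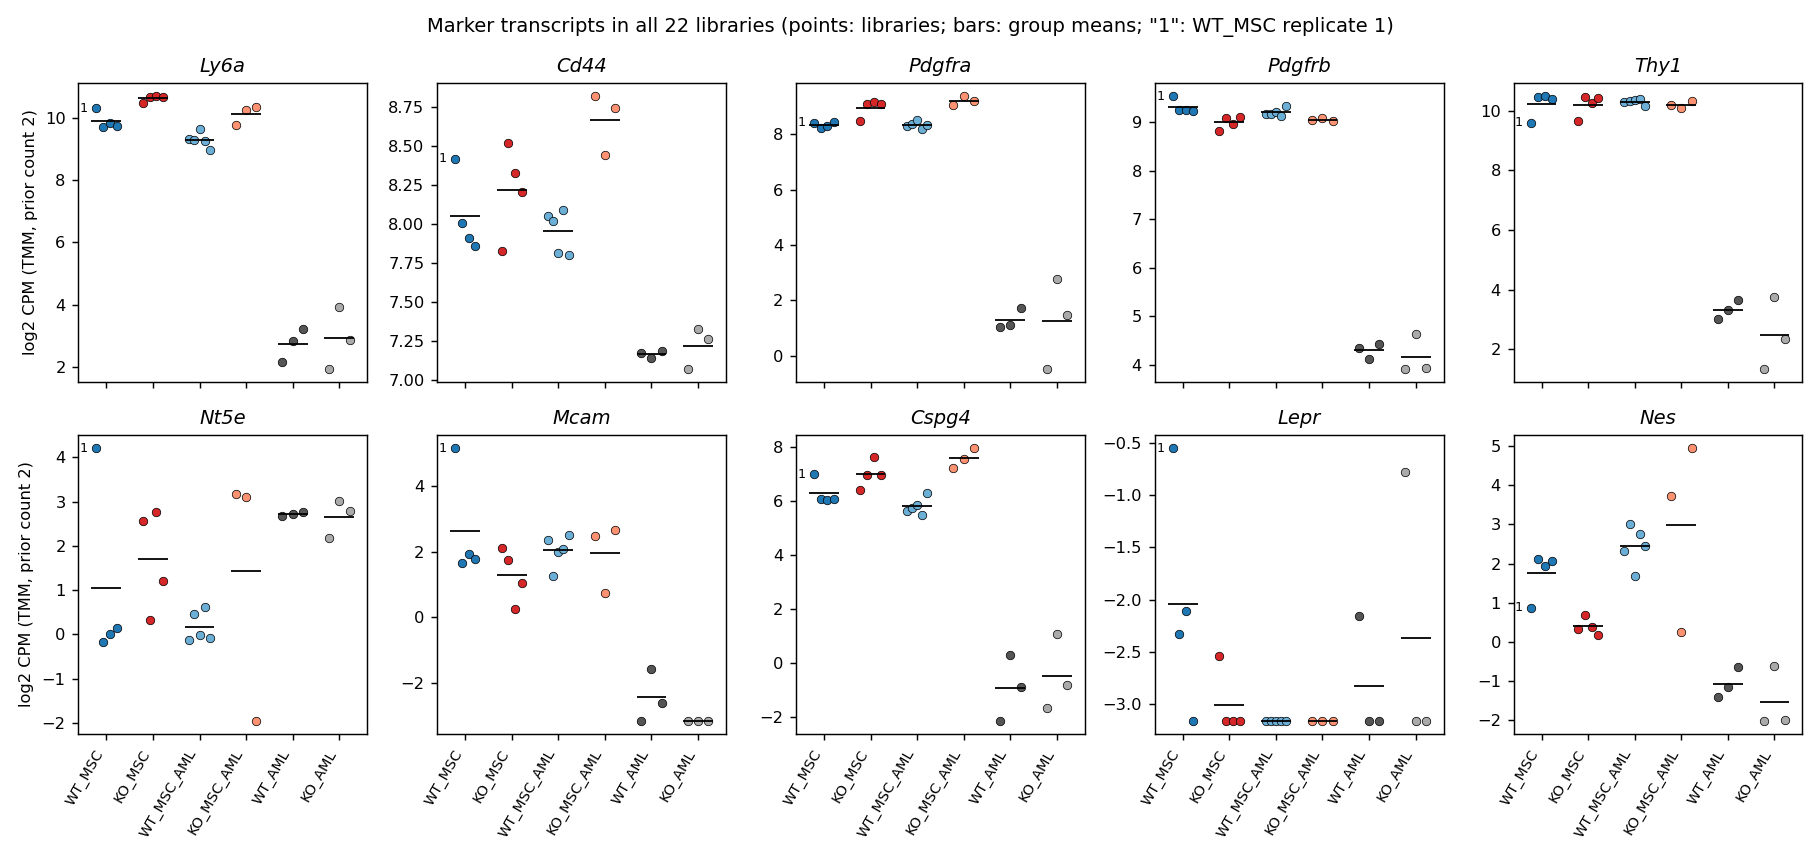
Level of each marker in all 22 libraries (log2 CPM, each panel on its own scale), grouped by MSC or AML group, with bars at group means and WT_MSC replicate 1 marked. The AML libraries lie far below the MSC libraries for Ly6a, Pdgfra, Pdgfrb, Thy1 and Cspg4, less far for Cd44, and within the MSC range for Nt5e.

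In MSC cultured alone, loss of Lama4 went with higher Ly6a and Pdgfra and lower Nes. In these and all later comparisons the test was edgeR's quasi-likelihood F-test over all genes with Benjamini-Hochberg adjusted p under 0.05, and fold changes are on the log2 scale with their SE. Of the 9 markers tested, 2 were higher and 1 lower in KO_MSC, in a comparison where 11.6% of all genes passed, 5.24% as higher and 6.34% as lower. Lepr had too few counts to be tested in any comparison.

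Ly6a was at 1277, 841, 921 and 859 CPM in WT_MSC and at 1443, 1634, 1667 and 1629 CPM in KO_MSC. The groups did not overlap, and the highest wild type library was replicate 1. Ly6a was higher in KO_MSC by 0.73 ± 0.16 (edgeR adjusted p = 0.0315). Pdgfra, the receptor for PDGF-A and PDGF-C that marks stromal progenitors, was at 340, 301, 312 and 343 CPM in WT_MSC and at 355, 543, 568 and 542 CPM in KO_MSC. KO_MSC replicate 1 lay just above the wild type libraries and far below its own group. Pdgfra was higher in KO_MSC by 0.65 ± 0.16 (edgeR adjusted p = 0.0389). Nes, an intermediate filament protein, was low throughout, at 1.71, 4.22, 3.71 and 4.10 CPM in WT_MSC and at 1.15, 1.51, 1.19 and 1.01 CPM in KO_MSC. All knockout libraries were below all wild type ones, with a log2 change of -1.48 ± 0.34 (edgeR adjusted p = 0.0334). Groups did not overlap for 4 of the 9 markers, where 18.4% of all genes behaved so. The fourth was Pdgfrb, at 745, 610, 611 and 602 CPM in WT_MSC and 454, 549, 502 and 552 CPM in KO_MSC, a change of -0.30 ± 0.12 that missed the threshold (edgeR adjusted p = 0.116).

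The calls depended on which library was left out. All 3 were lost when any of WT_MSC replicates 2, 3 and 4 or KO_MSC replicates 2, 3 and 4 was left out, and Nes was also lost without KO_MSC replicate 1. Over these fits the log2 change ran from 0.65 to 0.88 for Ly6a, from 0.58 to 0.77 for Pdgfra and from -1.71 to -1.38 for Nes. Without WT_MSC replicate 1, 5 of the 9 markers passed, where 46% of all genes did: Ly6a, Pdgfra and Nes with the same signs, Cspg4 higher by 1.02 ± 0.25 (edgeR adjusted p = 0.0131), and Nt5e higher by 2.17 ± 0.62 (edgeR adjusted p = 0.0212), against -0.39 ± 1.11 with all libraries. Within the 5 libraries that had Ddx3y without Xist, Ly6a was higher by 0.90 ± 0.06, Cd44 by 0.44 ± 0.08, Pdgfra by 0.77 ± 0.07 and Cspg4 by 0.92 ± 0.07, and Nes changed by -1.68 ± 0.31, all past the threshold, which 60% of all genes passed in that fit. The 5 markers of 9 are near the share of all genes in both. Pairs among the 5 libraries with Ddx3y and without Xist were the most alike, at a chi-square per degree of freedom of 4.26 to 7.95 in WT_MSC and 6.59 in KO_MSC. The other pairs within these groups stood at 53.6 to 229. The small SEs of that fit measure only the spread between such like libraries.

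The remaining markers did not pass with all libraries in the fit. Cd44 was at 342, 258, 241 and 233 CPM in WT_MSC and 228, 367, 322 and 295 CPM in KO_MSC, overlapping groups (log2 change 0.19 ± 0.18). Thy1 was at 775, 1400, 1439 and 1335 CPM in WT_MSC and at 805, 1419, 1222 and 1368 CPM in KO_MSC. In both groups replicate 1 was the low library, and the log2 change was -0.03 ± 0.25. Cspg4, a chondroitin sulfate proteoglycan, was at 127, 66.9, 65.3 and 68.3 CPM in WT_MSC and at 86.0, 127, 198 and 125 CPM in KO_MSC (0.72 ± 0.30, edgeR adjusted p = 0.136). Here WT_MSC replicate 1 fell among the knockout libraries. Mcam, an adhesion molecule of the immunoglobulin family, was at 35.4, 3.04, 3.71 and 3.30 CPM in WT_MSC and at 4.19, 3.23, 1.07 and 1.96 CPM in KO_MSC. Its log2 change of -2.10 ± 0.92 (edgeR adjusted p = 0.149) shrank to -0.34 without WT_MSC replicate 1. Nt5e was at 18.3, 0.782, 0.897 and 0.991 CPM in WT_MSC and at 5.77, 1.15, 6.65 and 2.20 CPM in KO_MSC. Apart from WT_MSC replicate 1, KO_MSC replicates 1, 3 and 4 were above the wild type libraries. KO_MSC replicate 2 had 16 counts, beside 18, 15 and 15 counts in WT_MSC replicates 2, 3 and 4. Lepr had 11, 2, 2 and 0 counts in WT_MSC and 1, 0, 0 and 0 counts in KO_MSC.

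The authors' deposited table, in which 26.9% of genes with an adjusted p passed for this comparison, gives Ly6a a log2 change of 0.728 with adjusted p = 0.0389. The authors' deposited table also gives Mcam a log2 change of -2.114 with adjusted p = 0.0205, a gene whose wild type mean rests on replicate 1. Pdgfra, with adjusted p = 0.110, and Nes, with adjusted p = 0.0528, do not pass in the authors' deposited table.

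Genotype was compared again in MSC sorted from co-culture. In KO_MSC_AML, 5 of the 9 markers tested were higher than in WT_MSC_AML and none was lower, where 31.4% of all genes passed, 16.9% as higher and 14.5% as lower. The 5 were Ly6a, Cd44, Pdgfra, Nt5e and Cspg4. Groups did not overlap for 5 of the 9 markers, the first 3 of these with Cspg4 and Pdgfrb, where 33.5% of all genes behaved so.

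Ly6a was at 640, 623, 800, 616 and 505 CPM in WT_MSC_AML and at 877, 1228 and 1314 CPM in KO_MSC_AML. Every knockout library was above every wild type one, and the difference was 0.86 ± 0.17 (edgeR adjusted p = 0.00364). Cd44 was at 265, 260, 225, 273 and 223 CPM in WT_MSC_AML and at 452, 349 and 430 CPM in KO_MSC_AML. The groups were apart, with Cd44 higher by 0.74 ± 0.12 (edgeR adjusted p = 0.00116). Pdgfra was at 317, 327, 367, 292 and 324 CPM in WT_MSC_AML and at 532, 661 and 582 CPM in KO_MSC_AML. It was higher by 0.88 ± 0.11 (edgeR adjusted p = 0.000294), with no overlap. Cspg4 was at 49.4, 53.9, 57.2, 45.2 and 80.0 CPM in WT_MSC_AML and at 152, 190 and 251 CPM in KO_MSC_AML. This was the clearest separation among the markers, at 1.81 ± 0.19 (edgeR adjusted p = 9.91e-05). These 4 calls held whichever of the 8 libraries was left out.

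Nt5e was at 0.813, 1.28, 0.885, 1.42 and 0.840 CPM in WT_MSC_AML and at 8.83, 8.43 and 0.147 CPM in KO_MSC_AML. The first 2 knockout libraries were far above the wild type ones and the third was below them all. The fitted difference was 2.49 ± 0.77 (edgeR adjusted p = 0.0335). It passed without KO_MSC_AML replicate 3, at 3.06 ± 0.30, and missed the threshold when any other library was left out. Nes was as scattered, at 4.88, 7.97, 3.07, 6.61 and 5.37 CPM in WT_MSC_AML and at 13.1, 1.07 and 30.7 CPM in KO_MSC_AML. KO_MSC_AML replicate 2 was the low library. The difference of 1.43 ± 0.75 did not pass (edgeR adjusted p = 0.182), and without that replicate it was 1.98 ± 0.35 (edgeR adjusted p = 0.00356).

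Thy1, Pdgfrb and Mcam did not pass by genotype in co-culture. Thy1 was at 1267, 1275, 1332, 1334 and 1141 CPM in WT_MSC_AML and at 1171, 1097 and 1274 CPM in KO_MSC_AML (-0.09 ± 0.11). Pdgfrb was at 576, 575, 595, 564 and 646 CPM in WT_MSC_AML and at 527, 543 and 522 CPM in KO_MSC_AML (-0.14 ± 0.10). Across all 16 MSC libraries Pdgfrb was the steadiest marker, with its highest library 1.64 times its lowest, against 3.30 times for Ly6a and 5.54 times for Cspg4. Mcam was at 5.04, 2.28, 3.83, 4.15 and 5.60 CPM in WT_MSC_AML and at 5.45, 1.57 and 6.18 CPM in KO_MSC_AML, with overlapping groups (0.09 ± 0.41). Lepr had 0 counts in all 8 co-cultured MSC libraries, which allows up to 0.0306 CPM over WT_MSC_AML and 0.0660 CPM over KO_MSC_AML (3 counts over the group, counting error only).

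Cell cycle genes differed alongside the markers in both genotype comparisons. Of the 16 in the list, 13 were lower in KO_MSC than in WT_MSC, where 6.34% of all genes were. All 16 were lower in KO_MSC_AML than in WT_MSC_AML, where 14.5% of all genes were. Their summed level ran from 166 to 956 CPM in WT_MSC and 143 to 177 CPM in KO_MSC, ranges that overlap. It ran from 613 to 1182 CPM in WT_MSC_AML and 254 to 470 CPM in KO_MSC_AML. The summed level of 12 endothelial genes was apart by genotype in both comparisons. It ran from 8.00 to 13.95 CPM in WT_MSC and from 21.1 to 34.9 CPM in KO_MSC, and from 9.80 to 13.8 CPM in WT_MSC_AML and from 19.7 to 39.0 CPM in KO_MSC_AML. Of the 12, 6 were under 1 CPM in every WT_MSC library and 8 in every library of each other MSC group, and Cldn5 was at 0 in all 16. In MSC alone none of the 4 tested passed. In co-culture the receptors Tek (9.53 against 0.101 CPM) and Flt1 (9.92 against 2.24 CPM) were higher in knockout MSC and Esam was lower. The part of these in the marker differences was not tested.

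**Figure D3:**
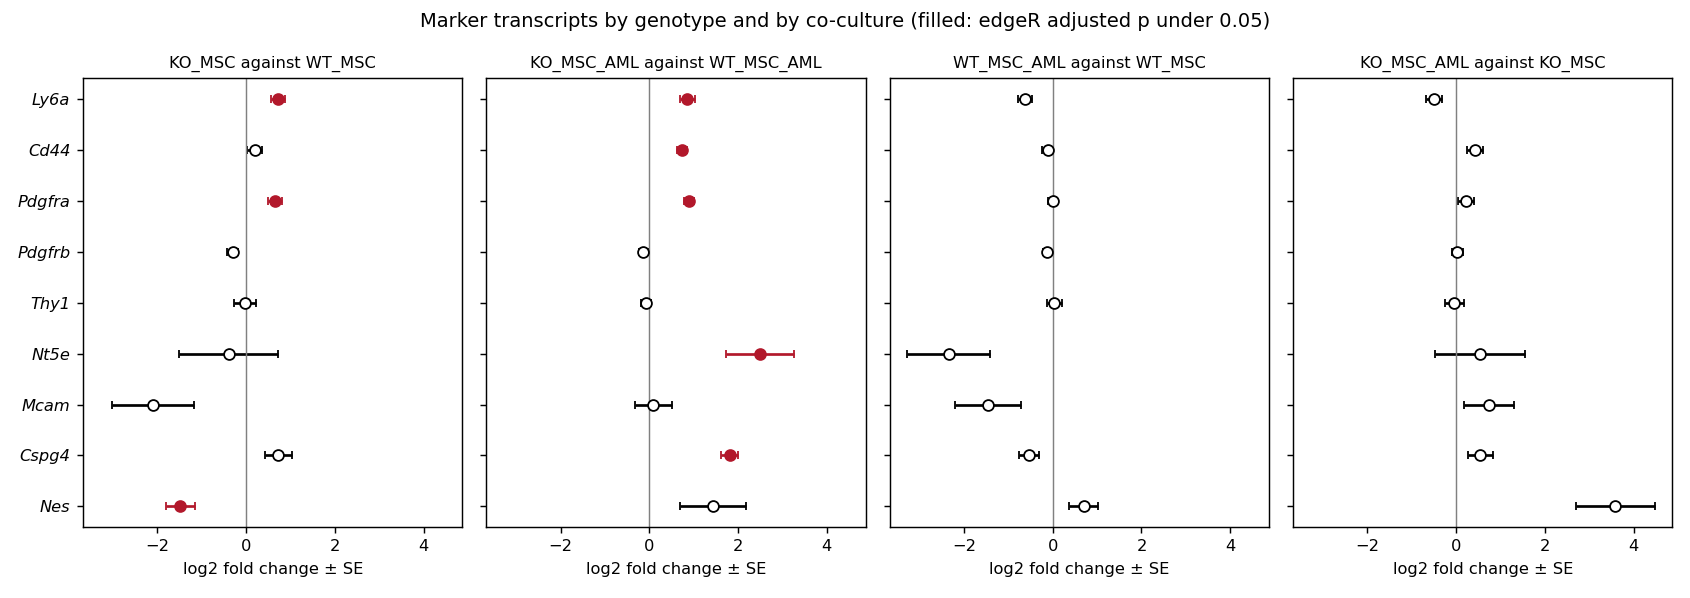
Log2 fold change with SE of the 9 tested markers for genotype (KO_MSC against WT_MSC, KO_MSC_AML against WT_MSC_AML) and for co-culture within each genotype. Filled red points passed the threshold, 3 and 5 for the genotype comparisons and 0 for both co-culture comparisons.

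Co-culture with AML cells moved none of the 9 tested markers past the threshold in either genotype, where 0.744% of all genes passed in wild type and 0.743% in knockout MSC. Before adjustment, edgeR gave p under 0.05 for 2459 of 13439 genes in wild type and for 3295 of 13452 genes in knockout MSC. Ly6a was the marker whose libraries did not overlap, in both genotypes, where 9.18% and 21.4% of all genes did not, with log2 changes of -0.62 ± 0.17 in wild type (edgeR adjusted p = 0.144) and -0.50 ± 0.18 in knockout (edgeR adjusted p = 0.146). With DESeq2, which called 3.96% and 13.4% of all genes, these were -0.62 (adjusted p = 0.0166) and -0.50 (adjusted p = 0.0247). Cd44 stood at -0.12 ± 0.13 in wild type and 0.42 ± 0.18 in knockout (edgeR adjusted p = 0.193). Nes stood at 0.69 ± 0.33 in wild type and 3.59 ± 0.90 in knockout (edgeR adjusted p = 0.0794), and the latter passed with DESeq2 (adjusted p = 0.000189). Nt5e and Mcam gave -2.35 ± 0.94 and -1.47 ± 0.74 in wild type with all libraries, and 0.24 and 0.32 without WT_MSC replicate 1. Pdgfra and Thy1 stood within 0.03 of no change in wild type MSC.

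The authors' deposited table, with 9.6% of genes past the threshold for wild type and 15.9% for knockout co-culture, lists Nt5e at -2.369 in wild type (adjusted p = 0.0454). For knockout MSC the authors' deposited table lists Cd44 at 0.432 (adjusted p = 0.0395) and Nes at 3.602 (adjusted p = 3.03e-06).

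Whether the change with co-culture differed between genotypes was asked directly by an interaction term over the 16 MSC libraries. No marker passed, nor did any gene (0% of 14247), although edgeR gave an unadjusted p under 0.05 for 1102 genes and DESeq2 called 29. The largest marker terms were Nes at 2.90 ± 0.89, Nt5e at 2.87 ± 1.503, Mcam at 2.19 ± 1.06 and Cspg4 at 1.08 ± 0.39, and Cd44 stood at 0.54 ± 0.22, with edgeR adjusted p between 0.529 and 0.683 for these 5. The wider set of calls in co-culture is therefore not shown to differ from that in MSC cultured alone.

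AML cells held little of most markers. Cd44 was the exception, at 144, 141 and 145 CPM in WT_AML and 135, 161 and 154 CPM in KO_AML, lower than in the MSC of the same co-culture, with log2 changes of -0.79 ± 0.09 (WT_AML against WT_MSC_AML, edgeR adjusted p = 7.54e-06) and -1.43 ± 0.14 (KO_AML against KO_MSC_AML, edgeR adjusted p = 4.42e-05). Nt5e was the other, at 6.27, 6.48 and 6.65 CPM in WT_AML and 4.39, 7.97 and 6.82 CPM in KO_AML. It was higher in WT_AML than in WT_MSC_AML by 2.63 ± 0.25 (edgeR adjusted p = 1.10e-06), and did not pass between KO_AML and KO_MSC_AML (0.16 ± 0.94). All 9 tested markers passed in the wild type comparison, 8 of them lower in AML, and 8 of 9 were lower in the knockout comparison. Most genes differ between such cell types, and 82% of all genes passed in the wild type comparison (39.1% higher and 42.9% lower in AML) and 79.9% in the knockout one (38.8% and 41.1%).

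As a share of the mean in co-cultured MSC, the AML libraries held 0.326% to 1.45% for Ly6a, 0.103% to 1.13% for Pdgfra, 0.206% to 1.15% for Thy1 and 0.103% to 1.96% for Cspg4. Lama4, which the wild type MSC make, was at 0.538% to 1.23% in WT_AML on the same scale. Pdgfrb stood above these, at 2.82% to 4.65%, and Cd44 at 32.8% to 58.4%. KO_AML replicate 2 was the highest KO_AML library for Ly6a (15.2 CPM), Pdgfra (6.69 CPM), Thy1 (13.5 CPM) and Cspg4 (1.97 CPM). Between KO_AML and WT_AML, none of the 6 markers tested passed, where 0.0482% of all genes did. Over all genes, edgeR gave an unadjusted p under 0.05 for 715 and DESeq2 called 20.

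**Figure D4:**
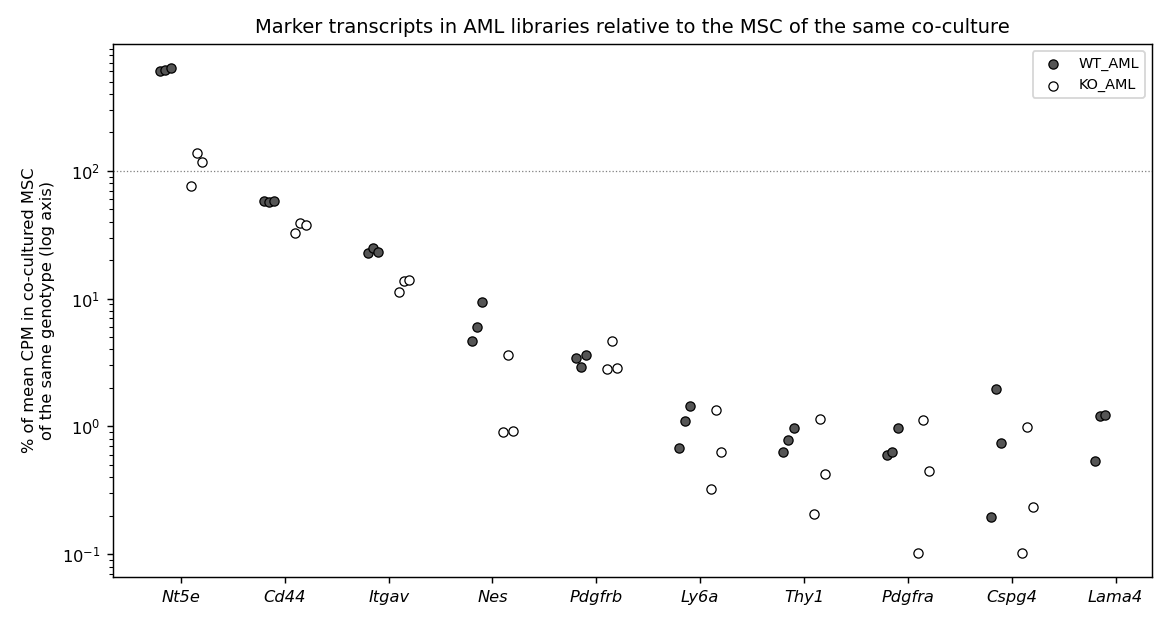
Marker level in each AML library as a percentage of the mean in co-cultured MSC of the same genotype (log axis, dotted line at equal level). Itgav is a gate gene, Lama4 is shown for WT_AML only, Mcam and Lepr are not drawn. Ly6a, Thy1, Pdgfra and Cspg4 lie between 0.103% and 1.96%, Cd44 at 32.8% to 58.4%, and Nt5e at or above the MSC level in all but 1 library.

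In the other direction, 65 genes high in AML cells and near 0 in MSC cultured alone put the AML share of transcripts at 0.536% to 3.04% in the 8 co-cultured MSC libraries. Haematopoietic marker genes summed to 45.8 to 126 CPM in WT_MSC and 77.1 to 219 CPM in WT_MSC_AML, and to 39.0 to 168 CPM in KO_MSC and 149 to 249 CPM in KO_MSC_AML. Of the 17 genes, 14 were under 1 CPM in every WT_MSC library and 15 in every KO_MSC library, against 2 in each co-cultured group. The sums in MSC alone therefore rest on few genes. With co-culture, 11 of 15 tested were higher in wild type and 5 of 12 in knockout MSC, where 0.744% and 0.743% of all genes passed. With the AML share subtracted, the log2 ratio of KO_MSC_AML to WT_MSC_AML was the same to 2 decimals for Ly6a (0.84), Cspg4 (1.79) and Pdgfra (0.86), went from 0.72 to 0.73 for Cd44, and from 2.47 to 2.595 for Nt5e. In bulk libraries, fewer cells of a type and less RNA per cell cannot be told apart.

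Across the 16 MSC libraries, the log2 levels of Pdgfra and Cspg4 had a Pearson r of 0.886, Cd44 and Cspg4 of 0.785, Cd44 and Pdgfra of 0.744 and Ly6a and Cspg4 of 0.731. These are descriptions over libraries that share groups, so differences between groups enter them. Other genes were compared if they had a mean of at least 3 log2 CPM. Symbols starting with Rpl, Rps, Gm or LOC, Rik symbols and others of unusual form were left out. Among the 9213 genes kept, the closest to Ly6a were Hexa (0.979) and Glmp (0.978). Those closest to Cd44 were Cap1 (0.936) and Adamts12 (0.924), to Pdgfra Apbb2 (0.963) and Trerf1 (0.961), and to Cspg4 Rasa4 (0.969) and Man1c1 (0.963). Pdgfrb was closest to Vav2 (0.905) and Arhgef7 (0.885), and Thy1 to Sirt5 (0.898) and Gamt (0.889).

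Partners and pathway genes of the markers were counted against the share of all genes past the threshold, 11.6% in MSC alone (5.24% higher, 6.34% lower) and 31.4% in co-culture (16.9% higher, 14.5% lower). For these lists, MSC alone stands for KO_MSC against WT_MSC, and co-culture for KO_MSC_AML against WT_MSC_AML. For the PDGF receptors, 2 of 7 tested relatives were higher and 1 lower in KO_MSC. Pdgfrl, a receptor-like protein, was higher by 1.64 ± 0.22 and Nrp1 by 0.62 ± 0.15, and Csf1r changed by -1.21 ± 0.32. In co-culture 4 of 8 were higher in knockout cells, among them the ligand Pdgfc (98.9 against 50.1 CPM, 1.00 ± 0.11) and Pdgfrl (2.01 ± 0.42). The median log2 change of the list was 0.44, against -0.01 over all genes tested. Of the Ly6 family, 1 of 6 tested was higher in KO_MSC, and in co-culture 2 of 7 were higher and 1 lower, with a list median of -0.11. Both genes that share read-length words with Ly6a were higher in KO_MSC_AML than in WT_MSC_AML, Ly6c1 by 1.05 ± 0.26 and Ly6i by 1.21 ± 0.35 (4.67 against 2.05 CPM). In MSC alone Ly6c1 was higher by 0.88 ± 0.19 (365 against 201 CPM), and Ly6i did not pass (0.45 ± 0.38). Cd59a, which encodes an inhibitor of complement, was lower in KO_MSC_AML than in WT_MSC_AML (-1.19 ± 0.35).

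Of 10 tested CD44 ligands and partners, 1 was lower in KO_MSC, the membrane linker Msn (-0.60 ± 0.11). In co-culture 4 were higher and 3 lower, with a list median of 0.01. Has2, which makes hyaluronan, was higher by 1.18 ± 0.14 and the protease Mmp14 by 0.71 ± 0.12, while the linkers Ezr and Rdx changed by -1.29 ± 0.19 and -0.48 ± 0.10. In the adenosine pathway around CD73, 2 of 8 were higher in KO_MSC_AML than in WT_MSC_AML, Adora2b (2.25 ± 0.55) and Entpd1 (1.73 ± 0.55). Another 2 were lower, the adenosine deaminase Ada (-1.16 ± 0.22) and the transporter Slc29a1 (-0.41 ± 0.12). Ada was also lower in KO_MSC (-1.05 ± 0.19). Leprot, which shares its locus with Lepr, was at 147 ± 5.91 CPM in KO_MSC_AML (n = 3) and 93.7 ± 9.70 CPM in WT_MSC_AML (n = 5), higher by 0.67 ± 0.10, while Lepr had 0 counts in both. Of 8 tested integrin partners of THY1, 4 were higher in KO_MSC_AML, Itgb3 by 1.34 ± 0.15 and Itgb5 by 1.02 ± 0.15 among them, and of 7 tested none passed in KO_MSC.

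Among 20 other MSC surface markers, 17 could be tested in MSC alone. Islr was higher in KO_MSC by 1.28 ± 0.27, and Cd200 and the fibronectin receptor chain Itga5 changed by -3.36 ± 0.39 and -1.24 ± 0.18. In co-culture 9 of 16 were higher and 1 lower, where 16.9% and 14.5% of all genes were, with a list median of 0.91. Endoglin (Eng), the CD105 of human MSC panels, was higher by 6.58 ± 0.27 (415 against 4.40 CPM) and podoplanin (Pdpn) by 1.45 ± 0.10, and Cd200 was lower, with a log2 change of -3.80 ± 0.32. Of 6 tested pericyte and mural genes, which mark the same cells as Cspg4 and Mcam in tissue, 3 were higher, such as Ndufa4l2 (5.99 ± 0.39) and Notch3 (0.76 ± 0.19). The contractile genes Tagln (-0.78 ± 0.17) and Acta2 (-0.70 ± 0.20) were lower. In MSC alone none of the 7 tested genes of this list passed, where 11.6% of all genes did. Of 15 stromal identity factors, 3 were higher and 4 lower in KO_MSC_AML than in WT_MSC_AML, including Grem1 (5.31 ± 0.24), Sox9 (1.30 ± 0.16), Snai2 (-0.87 ± 0.12) and Prrx1 (-0.79 ± 0.19). In MSC alone 2 of the 15 were higher and 1 lower, where 5.24% and 6.34% of all genes were. For the partner, pathway and other marker genes above, each gene's log2 change passed edgeR's test at adjusted p under 0.05 in the comparison named. The exception was Ly6i in MSC alone.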

How the data were processed

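Total RNA of sorted cells was turned into cDNA with SMART-Seq v4 and into Nextera XT libraries, read as single-end 75-base reads, per the labels' protocols, which name more than one sequencer and do not assign libraries to them. The authors deposited raw counts per gene. Per the file headers and the submitters' processing notes, reads were aligned with STAR 2.6.1d to GRCm38/mm10 and counted with featureCounts. The header writes a human build name beside the mouse species, and neither the strand setting nor the annotation release is given in the sources used here. The authors also deposited log2 fold changes and adjusted p-values for 4 comparisons, from DESeq2 per the file headers. A further 22 columns of the authors' normalized values were not used. Rows without a symbol (1275) hold 0.501% to 0.825% of a library's counts and were kept in the fits, since they carry gene identifiers.

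The fits used edgeR 4.0.16 under R 4.3.3 (TMM, filterByExpr, robust quasi-likelihood F-test, two-sided, Benjamini-Hochberg) on all genes of the libraries compared, and the interaction on all 16 MSC libraries. SE is the log2 change over the square root of F. Alternatives were DESeq2 1.42.0, RLE scaling, no low-count filter, leaving out each library, replicate number as a block, 1 fit over 16 libraries, libraries with Ddx3y at 10 CPM or more and Xist under 10 CPM, and subtraction of the AML share. The fits were tested on simulated data. Levels are TMM-scaled CPM over 22 libraries, and log2 CPM use a prior count of 2. Gene coordinates and promoters come from RefSeq GRCm38.p6, where 93.0% of rows matched, and promoters were matched by symbol. Exon lengths, exon overlaps and the 75-base words of transcripts come from the GENCODE mouse annotation. The smallest chi-square per degree of freedom between replicates was 4.26, so none was taken as a duplicate. Genes outside the 10 members were named by a rule: up to 2 higher and 2 lower per list by smallest adjusted p, genes sharing reads or locus with a member, the sort gate genes, and the 2 most similar genes per member. The members and lists were chosen with earlier results of these data known.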

Additional observations from a re-analysis of the deposited data

Results flagged for a closer look

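In groups of 4 or 5 libraries, 28 sets of a marker's values were checked for a library far from the others, a check that chance trips in about 1 of 20 sets, and 6 stood out. Of the 6, 5 were the same library, WT_MSC replicate 1. It was high for Pdgfrb (744.7 CPM; the other 3 libraries 601.6 to 610.8 CPM), Nt5e (18.3 CPM; others 0.782 to 0.991 CPM), Mcam (35.4 CPM; others 3.04 to 3.71 CPM) and Cspg4 (127 CPM; others 65.3 to 68.3 CPM), and low for Thy1 (775 CPM; others 1335 to 1439 CPM). It was 20.6 times the mean of the other 3 libraries for Nt5e and 10.6 times for Mcam. The sixth was KO_MSC replicate 1, low for Pdgfra at 355 CPM, with the other 3 libraries at 541.5 to 567.7 CPM. WT_MSC replicate 1 also differs from its group in Xist and Ddx3y, and KO_MSC replicate 1 has both of these transcripts. The part of this in the marker levels was not tested beyond the comparisons with and without these libraries.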

How the results depend on the processing

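Of 924 recomputed values for single markers, 832 kept their direction and side of the threshold, 45 changed sign, 35 were no longer past the threshold and 12 came to pass it. For WT_MSC_AML against WT_MSC, the libraries with Ddx3y and without Xist are all but WT_MSC replicate 1. That fit is the same as leaving this library out, and its values are counted under both. For KO_MSC against WT_MSC the count of markers past the threshold, 3, became 0 with the replicate block, 5 in the libraries with Ddx3y and without Xist, and 0 to 5 with a library left out. For KO_MSC_AML against WT_MSC_AML the 5 became 3 with the replicate block (Cd44, Pdgfra and Cspg4, with Ly6a at 0.74 ± 0.16 and edgeR adjusted p = 0.0544) and 4 to 5 with a library left out, and the Nt5e call was also lost without the low-count filter and in the fit over 16 libraries. In WT_MSC_AML against WT_MSC DESeq2 gave 1 (Ly6a) in place of 0. In KO_MSC_AML against KO_MSC the 0 became 2 with DESeq2 (Ly6a and Nes), 1 in the fit over 16 libraries (Nes), and 0 to 1 with a library left out (Nes, without KO_MSC_AML replicate 2). In KO_AML against WT_AML it was 0 to 1 with a library left out, Thy1 at -1.36 (edgeR adjusted p = 0.0423) without KO_AML replicate 2. The other 3 comparisons kept their counts in all alternatives run. The cause of these shifts was not tested. Replicate numbers did not pair the libraries: same-numbered libraries had deviations correlated between -0.338 and 0.283, and in no comparison were all pairs over 0.1.

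Among changes of sign, the one past the threshold was Nt5e in KO_MSC against WT_MSC, which ranged from -0.77 to 2.17 with a library left out, 2.17 being without WT_MSC replicate 1, and stood at 0.69 with the replicate block and 0.94 in libraries with Ddx3y. Thy1 there ranged from -0.19 to 0.12 and was 0.00 in libraries with Ddx3y. In WT_MSC_AML against WT_MSC, libraries with Ddx3y, here all but WT_MSC replicate 1, gave 0.03 for Cd44, 0.03 for Pdgfra, -0.14 for Thy1, 0.24 for Nt5e and 0.32 for Mcam. The ranges with a library left out were -0.18 to 0.03 for Cd44, -0.05 to 0.03 for Pdgfra, -0.14 to 0.11 for Thy1, -2.71 to 0.24 for Nt5e and -1.79 to 0.32 for Mcam, and Pdgfra was 0.00 with the replicate block and in the fit over 16 libraries. In KO_MSC_AML against KO_MSC, Pdgfrb ranged from -0.02 to 0.06 and Thy1 from -0.19 to 0.05, with 0.06 for Thy1 under the replicate block. Mcam in KO_MSC_AML against WT_MSC_AML ranged from -0.24 to 0.49, with -0.24, -0.10 and -0.06 without KO_MSC_AML replicate 3, KO_MSC_AML replicate 1 and WT_MSC_AML replicate 2. The interaction term ranged from -0.03 to 0.29 for Ly6a and from -0.22 to 0.10 for Thy1, with -0.03 and 0.10 without WT_MSC replicate 1 and 0.02 for Thy1 without KO_MSC replicate 2. In KO_AML against WT_AML, leaving out a library gave -0.25 to 0.71 for Ly6a, -0.45 to 0.96 for Pdgfra, -0.34 to 0.04 for Pdgfrb and -0.15 to 0.19 for Nt5e, and Nt5e was -0.03 with the replicate block. Nt5e in KO_AML against KO_MSC_AML ranged from -0.36 to 0.62, with -0.36 without KO_MSC_AML replicate 3 and -0.02 without KO_AML replicate 2.

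Counts over all genes moved further. KO_MSC against WT_MSC had 1545, and 3267 with DESeq2, 270 with the replicate block, 2977 in the fit over 16 libraries, 8178 in libraries with Ddx3y and 55 to 6242 with a library left out. WT_MSC_AML against WT_MSC had 100, and 532, 27, 151 and 207 in the same order, and 26 to 255. The 207 is also the count without WT_MSC replicate 1, since it is the same fit. KO_MSC_AML against KO_MSC had 100, with 1808 by DESeq2, 58 with RLE scaling, 214 without the filter, 935 in the fit over 16 libraries and 0 to 1324. KO_MSC_AML against WT_MSC_AML had 4306, with 1157 under the replicate block. KO_AML against WT_AML had 6, with 20 by DESeq2, 49 without the filter, 58 under the replicate block and 1 to 28. The interaction had 0, with 29 by DESeq2 and 0 to 81 with a library left out.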

Other observations

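The values here were chosen after they were seen. Eng, which encodes endoglin and is among the other MSC surface markers, stood at 346 CPM in WT_MSC replicate 1 and at 5.30, 5.80 and 4.69 CPM in WT_MSC replicates 2 to 4, while the KO_MSC libraries had 259.6, 429.8, 356 and 397 CPM. In WT_MSC_AML it was at 2.01 to 6.08 CPM in all 5 libraries, and in KO_MSC_AML at 357 to 456 CPM. Ndufa4l2, Grem1 and Pdpn, named above, also had a WT_MSC library above every KO_MSC library. That library was at 298, 120 and 188 CPM, against WT_MSC medians of 7.48, 3.03 and 47.4 CPM. The KO_MSC libraries were at 148 to 249, 26.0 to 55.2 and 103 to 124 CPM. Islr, Sox9, Cd200 and Itga5 had no WT_MSC library within the KO_MSC range. Lama4 in WT_MSC replicate 1, at 6631 counts, was in the range of the other wild type libraries (5190 to 7395 counts).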
